A study of Mus musculus with 4 samples.

Results

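Ubiquitin is passed to proteins by a chain of enzymes, and the genes described here belong to the middle and the end of that chain. E2 enzymes (symbols beginning Ube2) carry ubiquitin, or a related modifier such as NEDD8, from an activating E1 enzyme to a ligase. Cullins (Cul) are the scaffolds of the largest family of ligases, and F-box proteins (Fbxo, Fbxl and Fbxw, by their accessory domain) are the substrate receptors of ligases built on CUL1. In muscle this system marks contractile and signalling proteins for breakdown, during growth as well as during atrophy.

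The members were the protein-coding genes of the mm10 RefSeq table whose symbol is Ube2, Fbxo, Fbxl, Fbxw or Cul followed by a letter or digit. The muscle F-box genes Fbxo30 and Fbxo32 were left out by this rule. It gave 121 of 21887 genes on the autosomes, X and Y: 37 Ube2, 34 Fbxo, 18 Fbxl, 24 Fbxw and 8 Cul genes. Families were taken by symbol alone. The name E2 genes below stands for all 37 Ube2 symbols, Ube2cbp included, whether or not each product acts as an E2 enzyme.

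CUT&RUN, an assay that cuts out and sequences the DNA next to an antibody's target, was carried out on gastrocnemius, a calf muscle, of male C57BL/6 mice aged 4 weeks. All the animals were Phf2 flox/flox. KO animals carried Acta1 Cre, which acts in muscle fibres, so that other cells of the muscle keep the gene. Ctrl animals had no Cre. Each genotype was assayed with an antibody to PHF2, a nuclear protein of the JmjC demethylase family that reads histone methylation through its PHD finger, and with the non-specific antibody IgG. There was 1 library in each of the 4 groups, so no comparison has a replicate check and no test across samples was possible. All values describe these libraries.

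The lists held 161 KO PHF2, 1621 Ctrl PHF2, 152 KO IgG and 77 Ctrl IgG peaks. Read totals are unknown, and the number of tags at a PHF2 summit, derived from the authors' fold and p under an assumed formula, had a median of 15 in both PHF2 lists. Phf2 itself had no peak in either PHF2 list or in Ctrl IgG and 1 in KO IgG, and peak lists do not measure its deletion. Of 13 muscle fibre markers, 0 had a KO PHF2 peak at a gene end and 3 had a Ctrl PHF2 peak (Des, Myod1 and Myf6), while Acta1, Ckm and Ttn had none. Of 17 markers of satellite, endothelial, fibro-adipogenic, immune and fat cells, 0 had a KO PHF2 peak and 3 had a Ctrl PHF2 peak (Cxcr4, Cdh5 and Flt1). These 3 were 1 of 5 satellite and 2 of 4 endothelial markers. Fibro-adipogenic cells had 0 of 3, immune cells 0 of 3 and fat cells 0 of 2. Of all protein-coding genes, 0.484% had a KO PHF2 peak at an end and 5.60% a Ctrl PHF2 peak. The part of other cells in the results was not tested.

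The promoters that carry the results are shown first. They are those of both genes with a KO PHF2 peak (Cul1 and Fbxw11) and of the 4 E2 genes whose Ctrl PHF2 peak at a gene end covered most of the promoter window, chosen after their values were seen. Each is the run of 250 bases before the annotated start nearest the summit, from RefSeq on GRCm38.p6, written in the direction of transcription. Capitals mark matches, on either strand, to the motifs searched: the MYC-type E-box CACGTG, the MYOD-type E-box CAGCTG, the cyclic AMP response core TGACGT, the AP-1 motif TGANTCA, the GC box GGGCGG, the CCAAT box, the ETS motif CCGGAAG, the FOXO motif TGTTTAC, the TATA box TATAAA, the NRF1 core GCATGCG and the YY1 core AAGATGG. None of the 11 motifs is contained in another. Matches of different motifs shared bases in 1 of 14 member windows at a Ctrl peak and in 1.53% of all windows, and matches of the same motif did in 3 of 14 and in 10.5%.
Cul1 (chr6:47454507-47454756, plus strand): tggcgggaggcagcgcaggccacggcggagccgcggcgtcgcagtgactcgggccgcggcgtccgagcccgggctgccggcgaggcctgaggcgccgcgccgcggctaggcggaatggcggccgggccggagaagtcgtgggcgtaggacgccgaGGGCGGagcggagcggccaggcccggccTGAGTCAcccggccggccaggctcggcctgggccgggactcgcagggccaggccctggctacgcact
Fbxw11 (chr11:32642305-32642554, plus strand): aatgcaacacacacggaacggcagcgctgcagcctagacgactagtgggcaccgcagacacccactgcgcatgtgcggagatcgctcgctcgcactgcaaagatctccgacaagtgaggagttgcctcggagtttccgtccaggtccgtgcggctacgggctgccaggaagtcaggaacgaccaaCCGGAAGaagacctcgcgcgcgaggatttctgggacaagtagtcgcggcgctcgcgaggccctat
Ube2k (chr5:65536995-65537244, plus strand): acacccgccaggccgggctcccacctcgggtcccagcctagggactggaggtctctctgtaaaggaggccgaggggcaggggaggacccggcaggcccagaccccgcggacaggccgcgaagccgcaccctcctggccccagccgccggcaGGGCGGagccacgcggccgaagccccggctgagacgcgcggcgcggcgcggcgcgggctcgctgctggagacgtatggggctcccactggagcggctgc
Ube2e1 (chr14:18331845-18332094, minus strand): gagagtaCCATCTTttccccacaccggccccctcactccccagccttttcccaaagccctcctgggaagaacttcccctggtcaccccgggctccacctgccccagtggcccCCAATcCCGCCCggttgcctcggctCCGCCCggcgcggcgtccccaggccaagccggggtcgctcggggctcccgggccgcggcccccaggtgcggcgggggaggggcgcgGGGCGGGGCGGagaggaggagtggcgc
Ube2d1 (chr10:71285263-71285512, minus strand): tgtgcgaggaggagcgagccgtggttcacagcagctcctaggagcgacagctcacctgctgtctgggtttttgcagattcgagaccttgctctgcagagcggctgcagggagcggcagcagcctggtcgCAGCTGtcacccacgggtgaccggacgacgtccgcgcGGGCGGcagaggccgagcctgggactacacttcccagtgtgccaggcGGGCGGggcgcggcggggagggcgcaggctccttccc
Ube2d3 (chr3:135438876-135439125, plus strand): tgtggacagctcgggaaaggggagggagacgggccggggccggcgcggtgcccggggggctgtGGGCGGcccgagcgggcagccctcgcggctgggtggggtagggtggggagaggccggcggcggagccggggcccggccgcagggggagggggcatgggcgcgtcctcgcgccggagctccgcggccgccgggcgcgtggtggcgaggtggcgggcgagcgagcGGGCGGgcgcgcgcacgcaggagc

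These upstream runs are rich in C and G. The Cul1 run was 80.0% GC with 39 CpG dinucleotides, the Ube2d3 run 83.2% with 39, and the Fbxw11 run 62.0% with 27. The Ctrl PHF2 peak covered all 250 bases at Cul1 and at Ube2d3, 241 at Ube2k and 191 at both Ube2e1 and Ube2d1. The KO PHF2 peak at Fbxw11 covered the 41 bases next to the start. Cul1 held a GC box beginning at -95 and an AP-1 match at -67, counted from the start. Fbxw11 held an ETS match at -65 and no GC box. A match describes letters in these windows only.

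PHF2 peaks lay at the ends of 2 members in KO muscle and of 16 members in Ctrl muscle. In KO these were Cul1 and Fbxw11, or 1.65% of members (Wilson 95% interval 0.454 to 5.83), where 0.484% of all protein-coding genes had such a peak. In Ctrl they were 13.2% (8.31 to 20.4), where 5.60% of all genes had a peak. A gene end means within 1 kb of either end of the gene model. No member had an IgG peak at an end or inside, which allows a share of up to 2.48% for each IgG library. Of all genes, 0.0137% had a KO IgG peak at an end, 0.00457% a Ctrl IgG peak and 0.0137% either, and 0.128% had either IgG peak at an end or inside. Shares at those levels could not be seen among 121 genes. The intervals cover counting error only and treat genes as independent.

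Presence in both genotypes was limited to Cul1 among the members, and 0.384% of all genes had both peaks. Fbxw11 had a KO peak and no Ctrl peak, as did 0.101% of all genes. The other 15 members with a Ctrl peak at an end, 12.4% of the 121 (7.66 to 19.4), had no KO peak there, against 5.21% of all genes. By peak, 1 of 17 Ctrl peaks at member ends (5.88%, 1.05 to 27.0) overlapped a KO peak by at least 1 bp, while 7.47% (6.09 to 9.14) of the 1151 Ctrl peaks at gene ends did. Member peaks had 11 to 20 tags, and among all 894 gene-end Ctrl peaks in that range the share was 4.92% (3.69 to 6.54). The interval for members contains both values. A missing KO peak means that none was called, since the lists hold no tags for places without a peak.

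The E2 genes held 8 of the 16 members with a Ctrl peak. That is 21.6% of 37 E2 genes (11.4 to 37.2), and 0 of 37 had a KO peak, which allows up to 8.11%. Of all genes, 0.484% had a KO peak, and a share at that level could not be seen among 37 genes. The 76 F-box members had 1 with a KO peak and 6 with a Ctrl peak (7.89%, 3.67 to 16.2). By family these 6 were 3 of 34 Fbxo genes (8.82%, 3.05 to 23.0), 2 of 18 Fbxl genes (11.1%, 3.10 to 32.8) and 1 of 24 Fbxw genes (4.17%, 0.739 to 20.2). Of 8 cullins, 1 had a KO peak and 2 a Ctrl peak (25.0%, 7.15 to 59.1). The interval of the E2 family lies above the 5.60% of all genes, and so does that of the cullins, though on 2 genes. The intervals of the 3 F-box families contain it, and intervals of different families overlap. These intervals make no allowance for looking at 5 families, and the members were chosen with earlier results of these data known. With peaks limited to a -log10 q of at least 5, a KO peak was left at 0 members and a Ctrl peak at 9 (7.44%, against 3.14% of all genes), and the cullins had 1. With a window of 500 bp, 0 of 8 cullins had a Ctrl peak. Of all genes 4.85% did, a share that could not be seen among 8 genes.

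**Figure D1:**
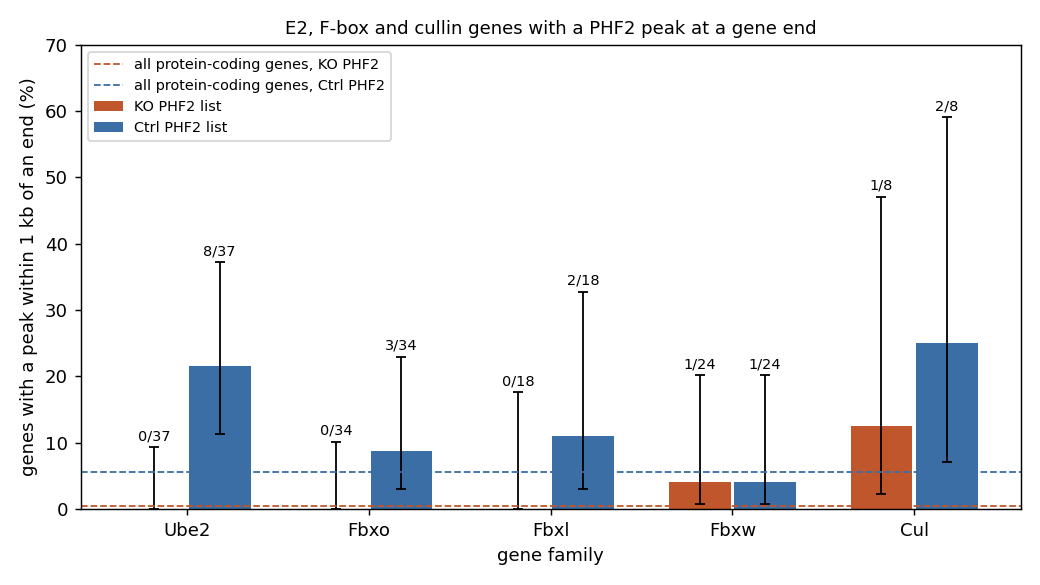
Share of each gene family with a PHF2 peak within 1 kb of a gene end, in percent, for KO (left bars) and Ctrl (right bars), with Wilson 95% intervals and the number of genes above each bar. Dashed lines mark the share of all protein-coding genes (0.484% KO, 5.60% Ctrl). Ube2 genes stand at 8 of 37 in Ctrl and 0 of 37 in KO.

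Cul1 (Gene ID 26965, chromosome 6, 47453732 to 47526144), the scaffold of F-box ligases, was the member found in both genotypes. Its KO peak, at 47454446 to 47455012, had 13 summit tags (exact Poisson 95% interval 6.92 to 22.2) and a fold enrichment of 6.64. Its Ctrl peak, at 47454438 to 47454974, had 20 summit tags (12.2 to 30.9) and a fold enrichment of 6.99. The peaks shared 529 bp, or 93.3% of the KO peak and 98.5% of the Ctrl peak, and the KO to Ctrl ratio of summit tags was 0.650. The tag intervals overlap, so a difference in height was not shown. Both peaks cover an annotated start at 47454757, with the KO summit 117 bp downstream and the Ctrl summit 65 bp upstream of it. This start lies inside the gene model, and the peaks begin 714 bp (KO) and 706 bp (Ctrl) from its outer end.

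Fbxw11 (Gene ID 103583, chromosome 11, 32642555 to 32746816) encodes beta-TrCP2, a receptor that brings beta-catenin and IkappaB proteins to CUL1 ligases. Its KO peak, at 32642514 to 32642917, crosses the start of the gene and had 12 summit tags (6.20 to 21.0) and a fold enrichment of 6.19. No Ctrl peak lay there, and the nearest was 186822 bp away. Its summit tags lie within the range of Ctrl member peaks, and it ranked 99 of 161 in its list, while the Cul1 peak ranked 73.

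**Figure D2:**
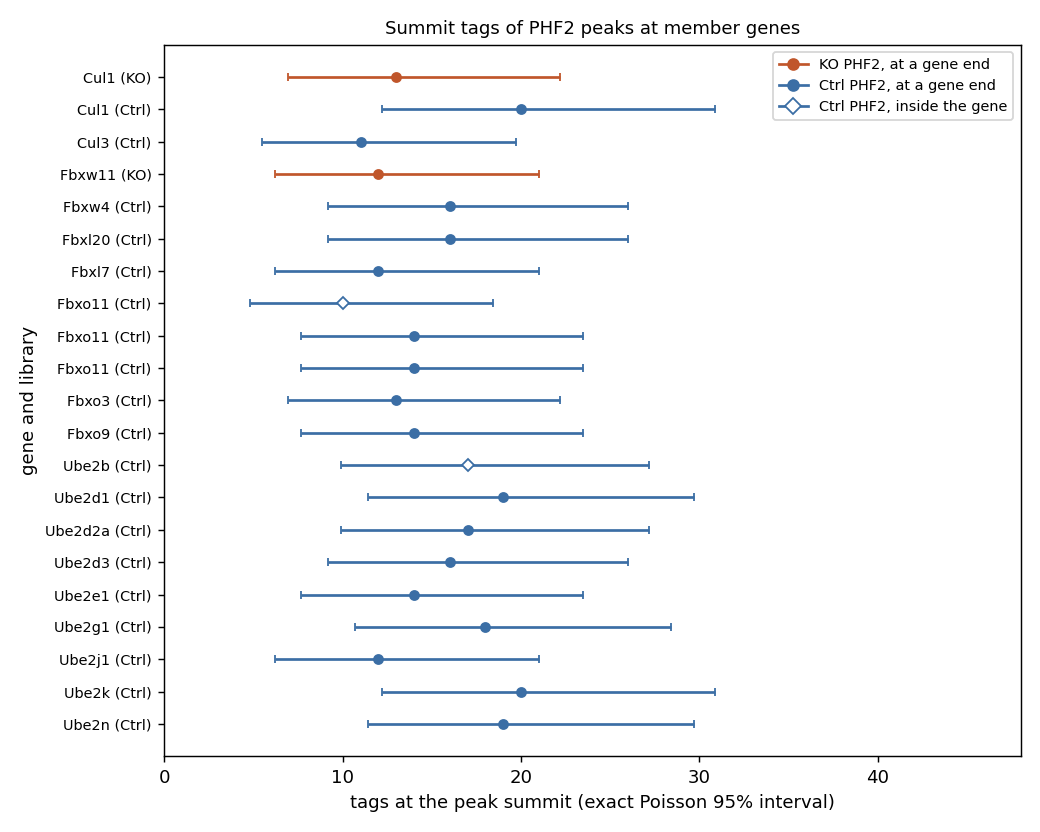
Tags at the summit of PHF2 peaks at member genes, with exact Poisson 95% intervals, by gene and library. Filled circles are peaks within 1 kb of a gene end and open diamonds peaks inside the gene that cover an annotated start. KO summits have 12 and 13 tags and Ctrl summits 10 to 20, and their intervals overlap.

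Among E2 genes with a Ctrl peak and no KO peak, Ube2n was the strongest. It encodes UBC13, which builds chains linked through lysine 63 of ubiquitin. Its Ctrl peak (chromosome 10, 95515182 to 95515626) had a fold enrichment of 8.42 and 19 tags (11.4 to 29.7). Ube2g1, whose product extends chains linked through lysine 48 with cullin ligases, had a peak at chromosome 11, 72607224 to 72607802, where the fold enrichment was 8.01 and the summit had 18 tags (10.7 to 28.4). Ube2k, another maker of lysine 48 chains, had a fold enrichment of 7.46 and 20 tags (12.2 to 30.9) at chromosome 5, 65537004 to 65537829. That peak also covers an end of the neighbouring gene Smim14. Ube2e1, of a family related to Ube2d, had a fold enrichment of 7.41 and 14 tags (7.65 to 23.5) at chromosome 14, 18331737 to 18332035.

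The Ube2d genes encode E2 enzymes that work with many ligases, cullin ligases among them. All 3 of Ube2d1, Ube2d2a and Ube2d3 had a Ctrl peak and none had a KO peak, while Ube2d2b, Ube2dnl1 and Ube2dnl2 had neither. A KO share of 0.484%, that of all genes, could not be seen among so few. Ube2d2a had a fold enrichment of 7.60 and 17 tags (9.90 to 27.2) at chromosome 18, 35771437 to 35772030. Ube2d1 had 6.67 and 19 tags (11.4 to 29.7), and Ube2d3 had 5.25 and 16 tags (9.15 to 26.0) in the widest member peak, of 1011 bp. Their tag intervals overlap. Ube2j1, an E2 of the endoplasmic reticulum membrane that serves the breakdown of misfolded proteins, had a fold enrichment of 5.55 and 12 tags (6.20 to 21.0).

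Ube2b, a RAD6 homologue, had a Ctrl peak inside the gene and none at an end. It had a fold enrichment of 4.89 and 17 tags (9.90 to 27.2) at a peak 3419 bp from the outer end. That peak covers an annotated start within the gene, and it is also within 1 kb of the protein-coding gene Cdkl3. With peaks inside counted too, 2 members had a KO peak (1.65%) and 18 a Ctrl peak (14.9%), beside 0.699% and 6.88% of all genes. A Ctrl peak inside and none at an end was found in 1.65% of members and 1.28% of all genes. Of the 37 E2 genes, 27 had no peak in any list. Among them were Ube2m and Ube2f, the NEDD8 E2 genes, Ube2c and Ube2s, which serve the anaphase-promoting complex, Ube2r2, a CDC34 homologue, and Ube2v1 and Ube2v2, the partners of UBC13.

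Fbxo11, a receptor known for the breakdown of BCL6, had more peaks than any other member. There were 3 Ctrl peaks and no KO peak. The strongest (chromosome 17, 88065037 to 88065705) had a fold enrichment of 7.41 and 14 tags (7.65 to 23.5). A peak just outside the gene, at 88066224 to 88066612, had 6.37 and 14 tags (7.65 to 23.5), over the lncRNA gene Gm45950. The third lay 1233 bp inside and covers an annotated start, with 5.50 and 10 tags (4.80 to 18.4).

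Fbxo9 had a Ctrl peak (chromosome 9, 78108104 to 78108928) of 14 tags (7.65 to 23.5) and a fold enrichment of 7.31, which is less than 1 kb from the neighbouring gene Cilk1 as well. Fbxo3 had one at chromosome 2, 104027961 to 104028466, with 5.96 and 13 tags (6.92 to 22.2), where the gene 4931422A03Rik overlaps. With Ube2k these are the 3 of the 16 members with a Ctrl peak at an end whose peak also lies at another protein-coding gene, and peak lists do not tell which gene such a peak belongs to. Without such peaks 13 members had a Ctrl peak (10.7%), against 4.18% of all genes. The Fbxo family then had 1 of 34.

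The leucine-rich repeat family was represented by Fbxl20 and Fbxl7. The Ctrl peak at Fbxl20 (chromosome 11, 98149650 to 98149958) had a fold enrichment of 6.07 and 16 tags (9.15 to 26.0). It is 963 bp from the gene end, close to the limit of the window, and 34 bp from an annotated start inside the gene model. At Fbxl7 (chromosome 15, 26895320 to 26895611) the fold enrichment was 4.40 with 12 tags (6.20 to 21.0), the lowest fold of any member. Fbxw4, the gene of the mouse dactylaplasia locus, had a Ctrl peak at chromosome 19, 45659855 to 45660197, with 5.70 and 16 tags (9.15 to 26.0). Cul3, the scaffold that takes BTB proteins as receptors, had one 690 bp inside its outer end (chromosome 1, 80339618 to 80340000), with 5.98 and 11 tags (5.49 to 19.7).

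No peak of any list lay at Fbxo40, a receptor found in skeletal muscle, at Fbxl22, known from the sarcomere, or at Fbxw7, the receptor for cyclin E. Cul2, Cul4a, Cul4b, Cul5, Cul7 and Cul9 had none either. A tandem cluster of 15 Fbxw genes fills 651 kb of chromosome 9 (109139454 to 109790660) with no other protein-coding gene, and no list had a peak in it. The nearest Ctrl PHF2 peak was 141219 bp away. Of the 9 Fbxw genes elsewhere, 1 had a Ctrl peak. Of all genes, 5.60% had a Ctrl peak at an end, and 15 and 9 genes are too few to tell either count from that share.

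The member peaks were of middling strength. Over 17 Ctrl peaks at member ends the fold enrichment had a median of 6.67 (4.40 to 8.42), and over all 1621 Ctrl peaks the median was 6.37 with a maximum of 18.3. Their tags had a median of 16 and their widths a median of 506 bp, against 15 tags and 505 bp over the whole list. With the Ctrl list split by rank into 4 equal parts, 3 lay in the strongest part, 7 in the next, 5 in the one after and 2 in the weakest. Ube2n, the strongest, ranked 220. When the Ctrl list was limited to its 161 peaks of highest fold, the length of the KO list, 0 members had a peak at an end, where 0.567% of all genes did. A share at that level could not be seen among 121 genes.

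**Figure D3:**
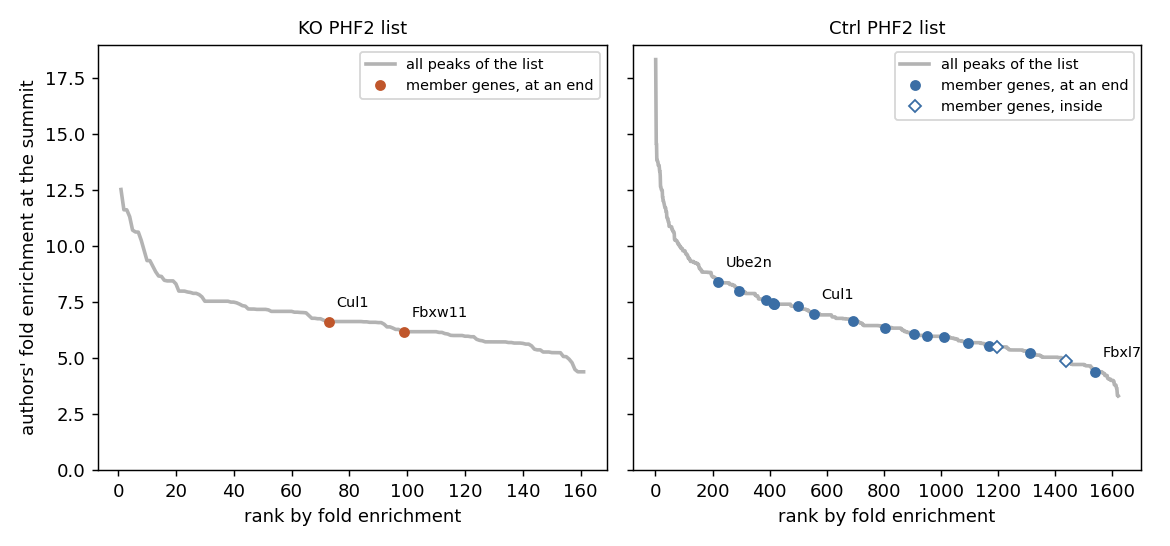
The authors' fold enrichment at the summit against rank within the KO PHF2 list (left) and the Ctrl PHF2 list (right). Grey lines are all peaks, filled circles are peaks at member ends and open diamonds are peaks inside members that cover an annotated start. KO member peaks rank 73 (Cul1) and 99 (Fbxw11) of 161, and Ctrl member peaks run from rank 220 (Ube2n) to 1540 (Fbxl7) of 1621.

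Most Ctrl peaks at member ends lay within 1 kb of an annotated transcription start. One end of a gene model is often a start, so the choice of peaks at gene ends favours this. The promoter table gave a start for 95 of the 121 members, and 14 of the 17 Ctrl peaks at member ends belong to such genes. All 14 lay within 1 kb of a start of their own gene, and 8 of them covered it (57.1%, 32.6 to 78.6). With starts of any protein-coding gene counted, on the chromosomes that the promoter table covers, 15 of 16 member peaks lay within 1 kb of a start (93.8%, 71.7 to 98.9), against 80.1% of all 1114 Ctrl peaks at gene ends. Of those near a start, 9 of 15 member peaks covered it (60.0%, 35.7 to 80.2), against 44.4% of all 892. Both values over all peaks lie inside the members' intervals. The summit was downstream of the start in 10 of 14 (71.4%, 45.4 to 88.3), as in 78.0% (75.2 to 80.6) of the 892 Ctrl peaks within 1 kb of any protein-coding start. The median summit position was 166 bp into the gene (-750 to 951), against 235 bp over those 892. Counting starts alone, 2 of 95 members had a KO peak and 14 of 95 a Ctrl peak (14.7%), against 0.560% and 6.42% of all genes with a start.

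**Figure D4:**
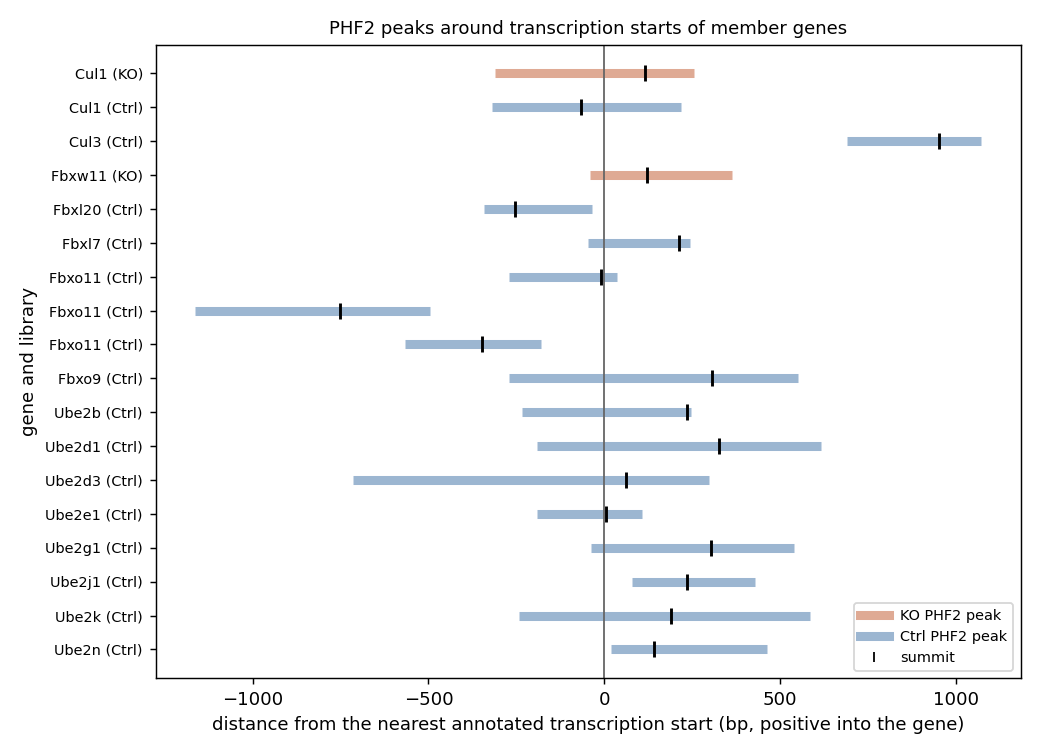
Extent of each PHF2 peak at members with an annotated start, in bp from the nearest start and positive into the gene. Bars are peaks and black ticks summits. The KO and Ctrl peaks at Cul1 cover the same start, and the peak at Cul3 lies furthest into its gene, with its summit at 951 bp.

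Promoter composition was compared over the windows of 300 bases around starts. Member windows at a Ctrl peak (14 windows of 12 genes) had a median of 32 CpG dinucleotides and 72.0% GC. The 114 member windows at no PHF2 peak had 19 and 58.8%. All 808 windows at a Ctrl peak had 29 and 67.7%, and all 21263 windows had 13 and 56.3%. A GC box stood in 13 of the 14 windows (92.9%) and in 57.0% of member windows at no PHF2 peak. It stood in 76.0% of all windows at a Ctrl peak and in 46.2% of all windows. The E-box CAGCTG stood in 4 of 14 (28.6%), in 23.7% of member windows at no PHF2 peak, in 13.9% of all windows at a Ctrl peak and in 15.6% of all windows. The YY1 core stood in 3 of 14 (21.4%), in 16.7% of member windows at no PHF2 peak, in 6.31% of all windows at a Ctrl peak and in 6.24% of all windows. For both motifs the share in member windows without a peak was thus also above that of all windows. The E-box CACGTG stood in 0 of 14 (7.84% of all windows), as did the FOXO motif (3.01%) and the TATA box (12.6%). In member windows at no PHF2 peak their shares were 8.77%, 1.75% and 5.26%. In all windows at a Ctrl peak they were 8.17%, 1.98% and 4.70%. Shares at those levels could not be seen among 14 windows. A GC box is made of C and G alone, and the part of base composition in these shares was not tested.

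Partner genes of the system were counted in the same way, in lists drawn up by role (143 genes found in the table). In KO 1 of them had a peak at an end (0.699%) and in Ctrl 19 did (13.3%), against 0.484% and 5.60% of all genes. The single lists are too short to show a KO share of 0.484%. The lists were chosen with earlier results of these data known, so their shares may not be independent of those results. The listed BTB adaptors, which bind substrates for CUL3, had 0 of 34 in KO and 9 of 34 in Ctrl (26.5%). They were led by Kbtbd2 (fold enrichment 8.84, 17 tags), Btbd1 (7.97, 23 tags) and Klhl31 (7.89, 15 tags), followed by Klhl21, Kbtbd4 and Klhl41, the last a muscle kelch gene mutated in nemaline myopathy. Receptors of CUL2 and CUL5 had 1 of 37 in KO and 5 of 37 in Ctrl (13.5%).

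The receptor gene in both genotypes was Socs2, a suppressor of growth hormone signalling. Its KO peak had a fold enrichment of 7.09 and 14 tags (7.65 to 23.5), and its Ctrl peak had 6.75 and 21 tags (13.0 to 32.1). Receptors of CUL4 had 0 of 20 in KO and 3 of 20 in Ctrl (15.0%), with Dcaf6 the strongest (9.32, 18 tags) before Dcaf5 and Dcaf8. E1 enzymes had 0 of 10 and 1 of 10, at the NEDD8 E1 subunit gene Nae1 (6.57, 13 tags). The core subunits and linkers had 0 of 11 and 1 of 11 (Ubxn7). The 4 ubiquitin genes and the 18 genes of NEDD8 attachment, removal and cullin exchange had no PHF2 peak at an end in either genotype. Nor did 9 genes listed outside the symbol rule, among them the F-box genes Btrc and Skp2. No listed gene had an IgG peak.

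**Figure D5:**
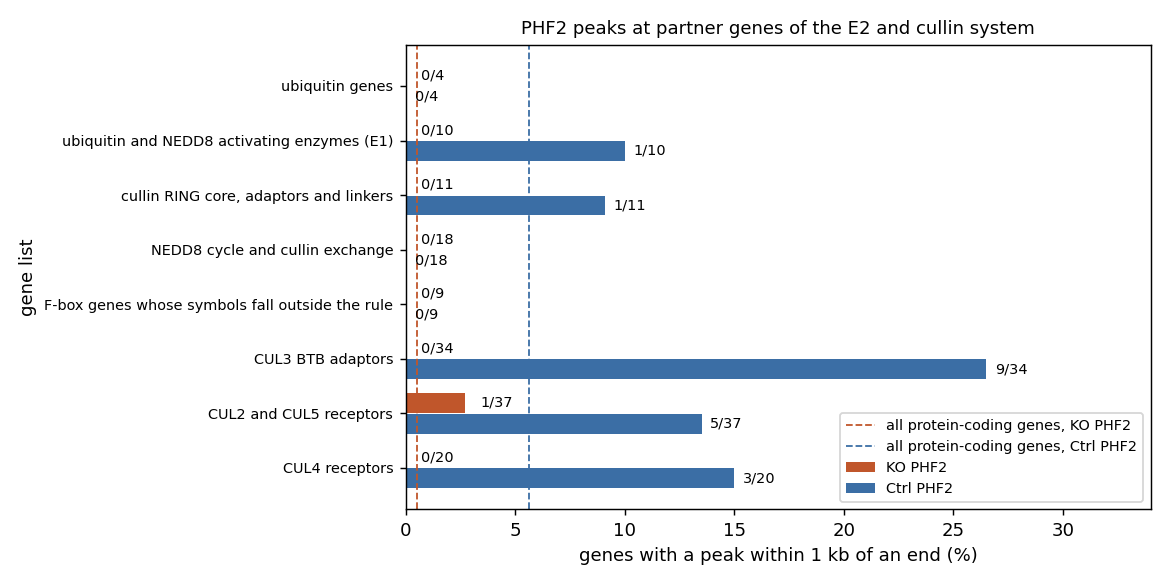
Share of genes in each partner list with a PHF2 peak within 1 kb of a gene end, in percent, for KO (upper bars) and Ctrl (lower bars), with counts beside the bars. Dashed lines mark all protein-coding genes. The listed CUL3 BTB adaptors reach 9 of 34 in Ctrl and 0 of 34 in KO. The lists were chosen with earlier results of these data known.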

How the data were processed

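Peak lists of 4 CUT&RUN libraries were used, grouped by sample title. The submitters' processing notes name Bowtie2, MACS2 and mm10; the sources used here give no versions, settings or control library. Every list has the peak names of a single library, and calling was per library by these deposited names. The names do not tell whether an IgG library served as control for the PHF2 peaks, which is unknown. The deposited fold enrichment is a ratio of summit to local background, and the deposited -log10 p and -log10 q refer to that background. The deposited score, derived from the q, was not used. These values are the authors' own. Folds and ranks were used within a list, while a common p threshold and the summit tags derived here were set side by side between lists, with no correction for depth.

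Peak starts were made 1-based. Genes came from RefSeq GRCm38.p6, without exons, and starts from its promoter table (17492 of 21887 genes). Summit tags were solved from fold and p on the assumption, not stated in the sources used here, that fold is summit coverage over local background with a pseudocount of 1 added to each and that p is a Poisson p. Coverage was then a whole multiple of a library factor: 0.609 in KO and 0.649 in Ctrl, within 0.005 for 100% of the 84 and 309 distinct pairs of values. Within the range of factors searched, the best other factor gave 39.3% and 36.6%. Factors outside that range, among them simple fractions of those found, were not tried, so the scale of the tags rests on the range. On 300 peaks simulated with the same formula 100% were recovered, which checks the solving and not the formula. Read depth is unknown, and tags may include PCR copies.

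Shares have Wilson and tags exact Poisson 95% intervals; a count of 0 allows 3. Members, lists and motifs were chosen with earlier results of these data known. Members with a peak are named, with values, except that some results for single genes are not reported here; other members and partners were picked once their values had been seen. The alternatives tried were a minimum q, a common p, the stronger 50%, other windows, the summit, starts alone, other overlaps, merged peaks and, chosen after seeing the data, peaks at more than 1 gene left out. Tools were Python (3.11.15) with the packages SciPy (1.17.1), NumPy (2.4.6), matplotlib (3.10.9) and pandas (2.3.3).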

Additional observations from a re-analysis of the deposited data

How the results depend on the processing

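Over the counts of members, families and shared peaks, 73 alternatives stayed within 1.5 times the reported count and 27 moved. With a -log10 q of at least 5, a KO peak remained at 0 members and a Ctrl peak at 9, against 0.160% and 3.14% of all genes. These 9 members had a Ctrl and no KO peak, against 3.03% of all genes. With this q, the Fbxl and Fbxw families had 0 each and the cullins 1, and 0 Ctrl peaks at members overlapped a KO peak. Among the stronger 50% of each list, 1 member had a KO peak and 9 a Ctrl peak, 8 of them with no KO peak. Of all genes, 0.279% had such a KO peak, 3.04% a Ctrl peak and 2.87% a Ctrl and no KO peak. The Fbxl and Fbxw families had 0 each and the cullins 1. With a common -log10 p threshold of 6.19, the lowest value in the KO PHF2 list, Fbxl had 1, against 5.11% of all genes. A window of 500 bp left 1 member with a KO peak, 1 Fbxl gene and 0 cullins. Of all genes, 0.361% then had a KO peak and 4.85% a Ctrl peak. The cullins dropped out since both peaks at Cul1 begin over 700 bp, and the Ctrl peak at Cul3 690 bp, from the outer end. The summit alone left 1 member with a KO peak and 1 Fbxl gene, against 0.411% (KO) and 5.20% (Ctrl) of all genes. Counting annotated starts only, Fbxw had 0 of 19, against 6.42% of all genes with a start. Leaving out peaks at more than 1 protein-coding gene left 1 Fbxo gene, against 4.18% of all genes. Limiting the Ctrl list to the length of the KO list left 0 members with a Ctrl peak, with 0 in each of the Ube2, Fbxo, Fbxl, Fbxw and Cul families. Of all genes 0.567% had one, a share that could not be seen among 121 genes. Under the 8 alternatives other than the q minimum, the stronger 50% and the shortened list, 13 to 18 members had a Ctrl peak. Over all genes the Ctrl shares under these 8 ran from 4.18% to 6.88%. Of the values for single named members, 339 kept their presence or absence, 6 were gained and 27 lost. No paired analysis was possible because there was only 1 library per group; leaving out a library was likewise not an option. Read depth is unknown and its part in the counts was not tested. KO peaks at members had 12 and 13 summit tags, and the lowest summits of the lists had 10 tags in KO and 8 in Ctrl.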

Other observations

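Members with a Ctrl PHF2 peak at an end were long genes, with a median of 55.5 kb (quartiles 30.5 and 75.3), against 23.7 kb (12.8 and 44.6) for the other 105 members. Over all genes the medians were 40.4 kb with such a peak and 16.5 kb without. The part of gene length in the counts was not tested.

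The 19 Ctrl peaks at or inside members that no KO peak overlapped lay a median of 3718 kb from the nearest KO PHF2 peak. The closest was at Ube2n, where a KO peak lay 47.8 kb away, and the furthest at Ube2j1, at 25880 kb. The KO list holds only 161 peaks over the genome, and the distance over all Ctrl peaks was not measured, so these values do not set members apart.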
